A study of Mus musculus with 20 samples.

Results

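The transcripts described here are mouse genes that still carry a provisional symbol, either Gm followed by a number or a clone name ending in Rik, and that were nearly absent from newborn ovaries lacking Figla. They were chosen by their own levels at postnatal day 0 (P0). A gene was taken when it averaged at least 2 CPM (its counts scaled to a common library total) in Figla control ovaries and at most 1/8 of that level in Figla knockout ovaries. Of 49585 genes counted, 25187 had such a symbol, 1418 of these reached the control level, and 34 met both conditions. The values that chose the 34 transcripts are therefore given as a description with no test, and tests were read only in the libraries that the choice did not use. Ovaries were from mice of the labelled strain B6D2F1. Figla knockouts and their controls were sampled before birth (E18.5; 4 libraries of each) and at P0 (3 of each), and Lhx8 knockouts and their controls at P0 only (3 of each). Knockouts are labelled Figla-/- or Lhx8-/- and controls Figla+/- or Lhx8+/-, while the Lhx8 library names call their controls wild type. Neither the alleles nor any pooling of animals is described further in the labels. Titles and library names contradict each other in 6 of 14 Figla libraries and in 6 of 6 Lhx8 libraries. Groups follow the library names here, and grouping by title would turn the sign of every Lhx8 result.

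FIGLA is a basic helix-loop-helix transcription factor of germ cells that is needed for primordial follicles to form around birth. It binds E-boxes, short DNA words written CANNTG, as a dimer with an E protein, and the zona pellucida genes of the egg coat are its best known targets. LHX8 is a LIM homeodomain factor of the same oocytes, needed for them to leave the primordial stage. Long noncoding RNAs are often restricted to single tissues, and for most of the transcripts below no function is attached to the symbol.

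RefSeq promoter windows (GRCm38.p6, 250 bases before to 50 bases after the annotated start) were found for 13 of the 34 transcripts. Those of the 6 that were most abundant in P0 controls are shown because they are the sequences nearest to the loss described below. They read 5′ to 3′ on the strand of the gene, and capitals mark every CANNTG. The windows are chr16:4835166-4835465 (plus strand) for 4930562C15Rik, chr1:153414184-153414483 (minus) for E330020D12Rik, chr10:121641451-121641750 (plus) for D930020B18Rik, chr7:114948400-114948699 (plus) for A730082K24Rik, chr1:107686750-107687049 (plus) for Gm15389 and chr1:51596669-51596968 (minus) for Gm17767.
4930562C15Rik: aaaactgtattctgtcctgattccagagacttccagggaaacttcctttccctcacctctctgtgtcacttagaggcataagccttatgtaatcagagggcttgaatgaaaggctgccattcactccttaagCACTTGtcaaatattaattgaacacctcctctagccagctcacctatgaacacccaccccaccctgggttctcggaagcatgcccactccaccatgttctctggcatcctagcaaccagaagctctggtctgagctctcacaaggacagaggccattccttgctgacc
E330020D12Rik: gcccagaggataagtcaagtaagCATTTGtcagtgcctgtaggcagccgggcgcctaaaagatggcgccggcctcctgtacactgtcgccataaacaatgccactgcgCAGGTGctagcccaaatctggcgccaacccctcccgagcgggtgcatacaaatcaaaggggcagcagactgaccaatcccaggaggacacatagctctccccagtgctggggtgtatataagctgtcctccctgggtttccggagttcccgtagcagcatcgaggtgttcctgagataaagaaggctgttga
D930020B18Rik: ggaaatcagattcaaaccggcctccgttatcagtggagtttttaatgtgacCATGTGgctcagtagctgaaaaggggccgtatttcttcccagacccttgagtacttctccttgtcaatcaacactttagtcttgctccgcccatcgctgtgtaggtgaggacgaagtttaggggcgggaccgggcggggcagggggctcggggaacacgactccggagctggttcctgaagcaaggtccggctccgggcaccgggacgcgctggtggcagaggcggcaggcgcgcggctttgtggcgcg
A730082K24Rik: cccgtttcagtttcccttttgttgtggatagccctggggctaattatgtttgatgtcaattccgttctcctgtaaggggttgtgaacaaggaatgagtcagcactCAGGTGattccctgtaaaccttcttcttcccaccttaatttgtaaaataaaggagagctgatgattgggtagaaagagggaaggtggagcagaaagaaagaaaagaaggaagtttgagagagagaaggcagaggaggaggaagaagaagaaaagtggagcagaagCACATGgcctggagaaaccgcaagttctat
Gm15389: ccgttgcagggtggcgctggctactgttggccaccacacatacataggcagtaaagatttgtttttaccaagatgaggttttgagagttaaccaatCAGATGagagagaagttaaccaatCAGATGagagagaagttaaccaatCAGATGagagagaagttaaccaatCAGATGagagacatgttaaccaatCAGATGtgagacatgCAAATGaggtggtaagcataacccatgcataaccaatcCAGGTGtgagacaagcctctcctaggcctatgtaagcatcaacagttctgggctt
Gm17767: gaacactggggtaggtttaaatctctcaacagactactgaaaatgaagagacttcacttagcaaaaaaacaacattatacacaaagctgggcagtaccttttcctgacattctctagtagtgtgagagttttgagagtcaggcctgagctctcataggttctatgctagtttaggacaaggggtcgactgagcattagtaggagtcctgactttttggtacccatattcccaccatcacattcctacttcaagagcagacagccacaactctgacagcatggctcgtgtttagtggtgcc

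The word CANNTG, which reads the same class of word on both strands, was in 11 of the 13 windows (84.6%), against 19498 of all 27025 windows in the table (72.1%), and the median was 1 per window in both. The Gm15389 window stood out by eye, with 7 such words. Of these, 5 were CAGATG, each 24 bases from the next and starting 154, 130, 106, 82 and 58 bases before the start, inside a repeated stretch. The Gm17767 window held none. The homeodomain word TAATTG, searched on both strands, was in 1 of 13 windows (7.69%), that of 4930562C15Rik, against 8.15% of all windows. The word TATAAA, searched on the gene's strand, was in 1 of 13 (7.69%), that of Gm35850, against 8.88%. These matches describe letters and not binding. The D930020B18Rik window is centred on a RefSeq start 113 bases inside the GENCODE start of that gene.

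Figla itself had 0.722, 0.961, 1.24 and 1.56 CPM in E18.5 knockout replicates 1 to 4, against 23.9, 20.5, 3.94 and 27.2 CPM in E18.5 control replicates 1 to 4. At P0 it had 0.175, 0.647 and 0.295 CPM in knockouts and 32.5, 35.5 and 39.5 CPM in controls. E18.5 control replicate 3 thus held far less Figla than the other controls; it is also the shallowest library, and its title names a knockout. Lhx8 had 18.1, 31.0 and 23.0 CPM in Lhx8 knockouts and 90, 101 and 89.4 CPM in their controls. Total counts ran from 5583392 to 13408022 in Figla libraries and from 8297204 to 9978350 in Lhx8 libraries, so that 3 counts, the floor used below for a group or library at 0, equal 0.224 to 0.537 CPM and 0.301 to 0.362 CPM in 1 library. General germ cell genes were present in every group. Summed over 10 such genes (Ddx4, Dazl and others), P0 Figla knockouts had 1240 to 1310 CPM and controls 1640 to 2220 CPM, with 5 of 10 lower. In the Lhx8 set they had 1350 to 1680 CPM in knockouts and 1710 to 2050 CPM in controls, with 3 of 10 lower. Among all genes tested, edgeR called 10.9% lower at P0 in the Figla set and 7.29% lower in the Lhx8 set. In whole ovaries, fewer oocytes and less RNA per oocyte cannot be told apart.

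By GENCODE annotation (M21, GRCm38), 16 of the 34 were long intergenic noncoding RNAs (47.1%, against 10.2% of the 1384 other provisionally named genes at 2 CPM or more). A further 2 were antisense transcripts, 2 processed transcripts and 2 entries still to be experimentally checked, 5 were pseudogenes, and 7 were annotated as coding a protein (20.6%, against 19.1%). They lay on 14 chromosomes, 8 of them on chromosome 5 and 5 each on chromosomes 1 and 7. Only 1 pair lay within 1 megabase, Gm4961 and Gm42765 on chromosome 5, at 431771 bases from each other. The 34 were spliced more often than the comparison genes, with a median of 3.5 exon blocks against 1, at a similar median exonic length of 2268 bases (range 432 to 6880) against 2409. These shares are descriptions without a test.

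In newborn Figla knockouts all 34 were almost gone, which is how they were chosen. Together they held 5.35, 5.50 and 6.40 CPM in P0 knockouts, against 265, 310 and 417 CPM in P0 controls. Per transcript, knockouts kept a median of 1.44% of the control level, with a highest share of 7.81% in Gm5083, and 8 transcripts had 0 counts in all 3 knockouts. In the same contrast edgeR's quasi-likelihood test called 10.9% of the 17321 genes tested lower (adjusted p under 0.05), and 33 of the 34 transcripts entered that test; nothing is read from this for the 34. The 34 were 2.4% of the provisionally named genes at 2 CPM or more, against 167 of the 13102 genes with other symbols at that level (1.27%).

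The most abundant was 4930562C15Rik (ENSMUSG00000022518, chr16:4835416-4867691, plus strand), annotated as protein coding with 18 exon blocks. It had 1.40, 1.37 and 1.67 CPM in P0 knockouts and 36.7, 50.4 and 85.9 CPM in P0 controls. Gm11985 (ENSMUSG00000087512, chr11:7183153-7188569, minus strand), also annotated as coding, had 0.0877, 0.566 and 0.394 CPM in knockouts and 39.4, 48.8 and 48.6 CPM in controls. Divided by exonic length it was the highest of all, at 45.3 CPM per kilobase in P0 controls, and Gm35850 was the lowest at 0.494. E330020D12Rik (ENSMUSG00000073538, chr1:153404827-153414233, minus strand), a processed transcript, had 0.175, 0 and 0.394 CPM in knockouts and 20.4, 29.2 and 48.3 CPM in controls. For these 3 the lowest control exceeded the highest knockout by a wide margin, which the choice itself favours.

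Next in level came Gm44601 (ENSMUSG00000108315, chr7:94368983-94372572, minus strand), a long intergenic noncoding RNA of 2 exon blocks, with 0.175, 0.243 and 0 CPM in P0 knockouts and 27.8, 20.3 and 14.0 CPM in controls. D930020B18Rik (ENSMUSG00000047642, chr10:121641588-121692892, plus strand), annotated as coding, had 1 count over the 3 knockouts and 14.6, 14.7 and 19.0 CPM in controls. A730082K24Rik (ENSMUSG00000108379, chr7:114948650-114983960, plus strand), a long intergenic RNA, had 0.0877, 0.243 and 0.295 CPM in knockouts and 16.6, 13.0 and 18.1 CPM in controls. As before, the lowest control stood far above the highest knockout for each.

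Gm15544 (ENSMUSG00000081664, chr7:80429210-80430740, plus strand) is a processed pseudogene, an intronless copy of another gene's messenger RNA, and had 0.0877, 0.404 and 0.394 CPM in P0 knockouts and 12.7, 13.7 and 13.7 CPM in controls. Gm44873 (ENSMUSG00000109105, chr7:29926978-29930405, plus strand), an entry still to be experimentally checked, had 0.175, 0.728 and 0.984 CPM in knockouts and 5.05, 13.2 and 16.2 CPM in controls. Both noncoding RNAs that completed the 10 highest were at 0 in all 3 knockouts. Gm15389 (ENSMUSG00000086161, chr1:107687008-107693514, plus strand) had 6.14, 10.8 and 16.7 CPM in controls, so knockouts were at least 130-fold lower against a floor of 3 counts over the group. Gm17767 (ENSMUSG00000099413, chr1:51507086-51596718, minus strand) had 6.39, 11.4 and 10.7 CPM in controls, so knockouts were at least 107-fold lower against that floor.

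At the edges of the choice, Gm28417 was just inside on level, at 0.118 CPM in knockouts and 2.03 CPM in controls, and Gm13391 was just outside it, at 0.0597 and 1.92 CPM. On the share kept in knockouts, Gm5083 was just inside at 7.81% and Gm14820 just outside at 12.8%. Leaving out any 1 of the 6 P0 libraries kept 29 of the 34.

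**Figure D1:**
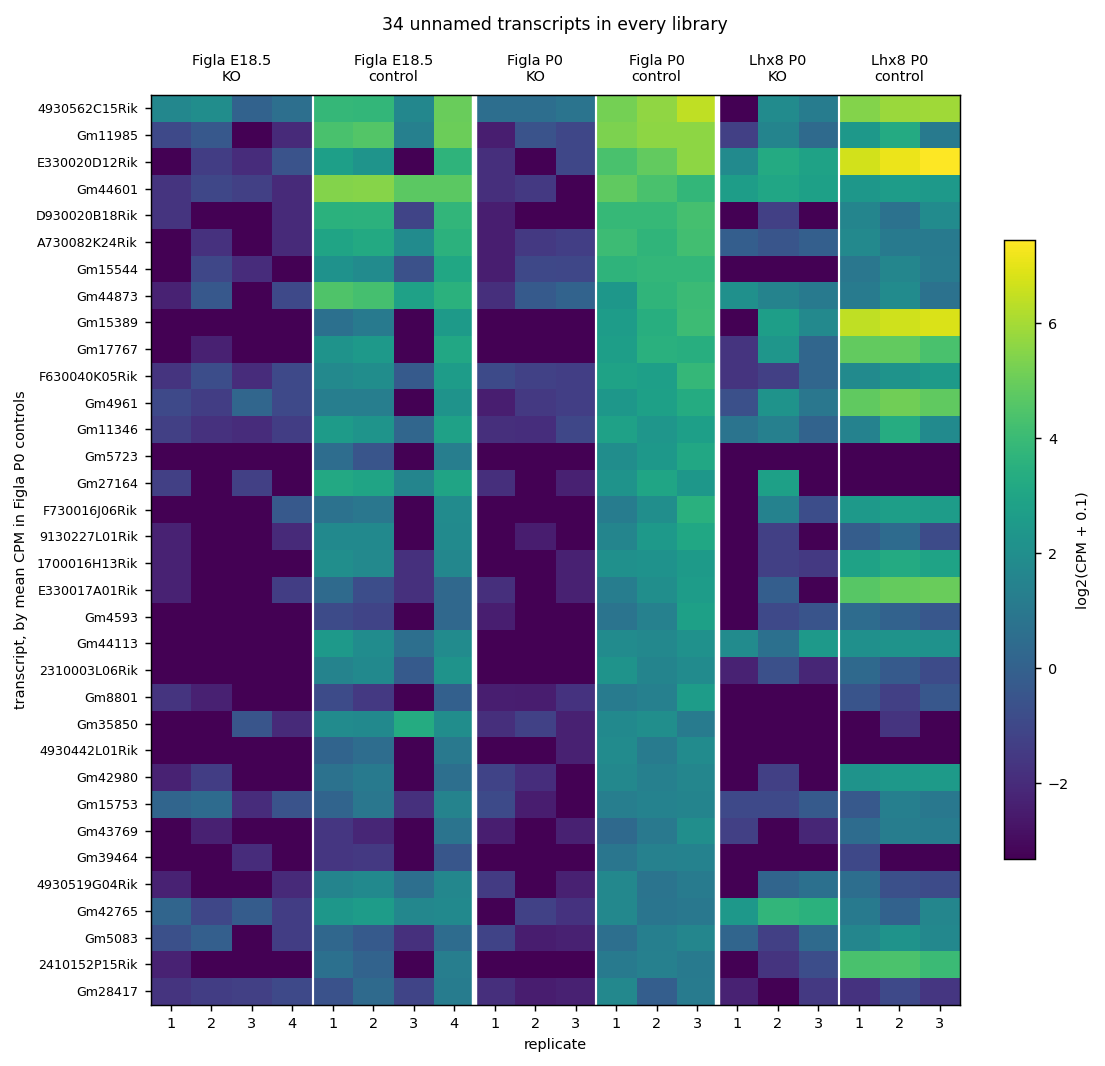
Level of each of the 34 transcripts (rows, ordered by mean CPM in Figla P0 controls) in each of the 20 libraries (columns, knockouts left of their controls), coloured by log2(CPM + 0.1). The Figla knockout columns are dark at both ages, E18.5 control replicate 3 is darker than its group, and in the Lhx8 set some rows stay bright in knockouts.

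Near these genes, other losses were few in number, but a larger share than near other provisionally named genes. A gene that itself passed both conditions lay within 5 kilobases of 3 of the 34 (8.82%), against 3 of the 1384 other provisionally named genes (0.217%), a description without a test. Pdzk1, which encodes a PDZ-domain scaffold protein, surrounds 4930442L01Rik (ENSMUSG00000087223, chr3:96829826-96832096, minus strand) on the opposite strand. Pdzk1 averaged 0.440 CPM in P0 knockouts and 32.4 CPM in P0 controls, and 4930442L01Rik had 0, 0 and 0.0984 CPM in knockouts and 3.53, 2.10 and 3.51 CPM in controls. Ptpn18, which encodes a protein tyrosine phosphatase, surrounds Gm28417 (ENSMUSG00000100280, chr1:34468834-34473148, minus strand), also on the opposite strand. Ptpn18 averaged 1.03 CPM in knockouts and 28.9 CPM in controls, and Gm28417 had 0.175, 0.0809 and 0.0984 CPM in knockouts and 3.11, 0.823 and 2.16 CPM in controls.

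Strand was not used in the counts, so reads of either partner in these antisense pairs cannot be told apart. The exons of 4930442L01Rik share 81 bases (3.9% of its exonic length) with Pdzk1, and those of Gm28417 share 492 bases (20.4%) with Ptpn18. The third neighbour, AY512915, lies 1211 bases from the processed pseudogene Gm5723 (ENSMUSG00000107900, chr6:95250301-95254515, plus strand) on the other strand, with no shared base. AY512915 had 0, 0.0809 and 0.0984 CPM in P0 knockouts and 4.96, 5.03 and 6.56 CPM in P0 controls. Gm5723 had 0 counts in all P0 knockouts and 3.79, 5.30 and 8.65 CPM in controls.

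The nearest protein-coding gene passed both conditions at P0 for 3 of 34 (8.82%). Of genes with other symbols at 2 CPM or more, 1.27% did, but the nearest coding genes were not limited to that level. The 3 were Pdzk1, Ptpn18 and D7Ertd443e, which lies 39617 bases from Gm4593 and averaged 0.458 CPM in knockouts and 14.5 CPM in controls. The distance to the nearest coding gene was at most 5 kilobases for 10 transcripts and over 50 kilobases for 10. The farthest was Gm44601, 1287116 bases from Fam181b, which averaged 1.13 CPM in P0 knockouts and 1.16 CPM in controls. Shcbp1l, which encodes a meiotic spindle protein of mouse testis, starts 10929 bases from E330020D12Rik in the opposite direction and averaged 24.5 CPM in knockouts and 47.9 CPM in controls. Xpot, which encodes the transfer RNA exportin, starts 15272 bases from D930020B18Rik in the opposite direction and averaged 94.2 CPM in knockouts and 118 CPM in controls. Ripor2, a coding gene that surrounds the pseudogene Gm11346 on the opposite strand, averaged 2.66 CPM in knockouts and 16.5 CPM in controls, so it kept more than 1/8. In edgeR at P0, Shcbp1l (log2 fold change -0.99, adjusted p = 0.000627) and Ripor2 (-2.66, adjusted p = 0.00078) were lower. Nabp1, nearest to Gm17767, was higher (0.53, edgeR adjusted p = 0.0419). Of all 34, 11 overlapped the span of another gene and 5 shared exonic bases with one.

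**Figure D2:**
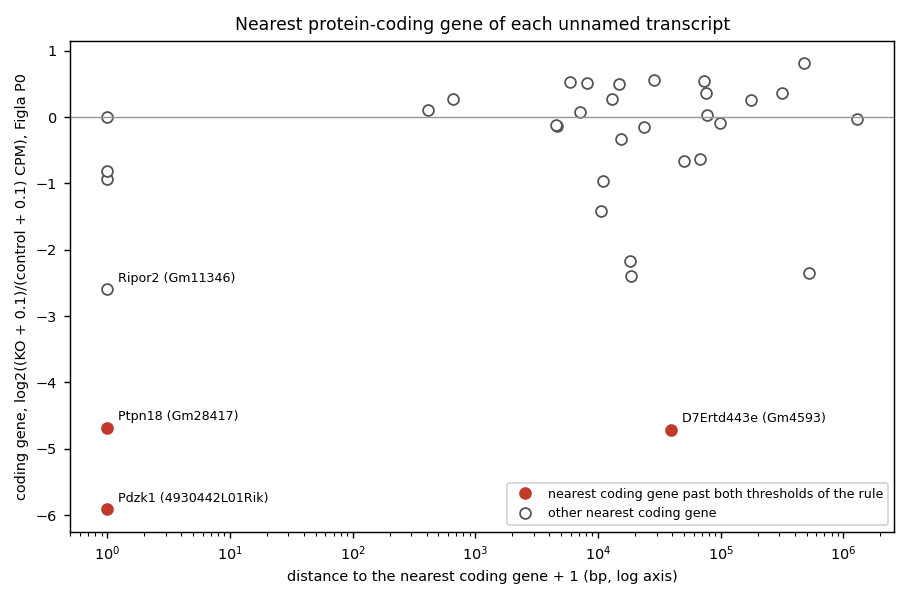
Each point is the protein-coding gene nearest to 1 of the 34 transcripts, placed by its distance (x, bases plus 1, log axis) and by its own log2 ratio of mean CPM in Figla P0 knockouts over controls (y, with 0.1 added to each). Only Pdzk1, Ptpn18 and D7Ertd443e (filled) passed both conditions of the choice.

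Several of the transcripts resemble other genes, so some reads may have been lost or assigned to a copy. A stretch of at least 90% identity to a transcript of a gene at another place in the genome was found for 19 of the 34. It covered 99.6% of Gm15753, which matches the Sp110 transcript over 1058 bases at 96.5%, and 64.2% of Gm4961, which matches Kif2c over 1443 bases at 91.7%. It covered 47.4% of Gm15389, whose longest match was to Olfr1372-ps1 over 316 bases at 90.8%. In Gm8801 it covered 40.6%, with a match to Ppp1r10 over 432 bases at 90.7%. Kif2c, a kinesin of the mitotic spindle, averaged 24.3 ± 1.96 CPM in P0 Figla knockouts and 31.5 ± 3.11 CPM in controls (SD, n = 3 each), while Gm4961 averaged 0.208 ± 0.108 CPM and 7.20 ± 2.31 CPM. Sp110 averaged 0.361 ± 0.254 CPM in knockouts and 0.804 ± 0.490 CPM in controls (n = 3 each), and Gm15753 averaged 0.173 ± 0.233 CPM and 2.61 ± 0.242 CPM. Gm44873 matches the phosphatase subunit gene Ppp2r5a over 1271 bases at 95.6%, which is 37.1% of its length. The most abundant transcript, 4930562C15Rik, also matches Ppp2r5a, over 350 bases at 97.1%. Ppp2r5a averaged 89.3 ± 5.18 CPM in knockouts and 93.3 ± 5.09 CPM in controls (n = 3 each). Of the 19, 6 hold a stretch that matches transcripts of over 100 other genes.

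At E18.5, before birth, the mean of each of the 34 was lower in Figla knockouts than in controls. Together they held 8.87, 10.7, 5.28 and 7.09 CPM in knockout replicates 1 to 4, against 196, 195, 65.7 and 235 CPM in control replicates 1 to 4. Per transcript, knockouts held a median of 2.74% of the control level; 26 of the 34 held at most 1/8, and the highest share was 43.8%, in Gm15753. Without control replicate 3, 29 held at most 1/8 and the highest share was 30.5%. Knockout replicates 1 and 2, and control replicates 1 and 2, were near-identical pairs (chi-square per degree of freedom 1.32 and 1.12, where the least different of the other pairs within groups gave 6.62), so the counts of each pair were summed and the test compared 3 knockout with 3 control samples. Control replicate 3 was the lowest control for 32 of the 34, with a median of 8.78% of the mean of the other controls.

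At E18.5, 10 of the 34 entered edgeR's quasi-likelihood test, and 1 was lower at an adjusted p under 0.05, where 0.0062% of the 16131 genes tested were, that is, this same gene alone. With knockouts near 0, a transcript had to reach the count minimum in all 3 control samples to be tested. The 10 had 1.43 to 26.5 CPM in control replicate 3 and the other 24 had 0 to 1.07 CPM there. Because that entry depends on the control level, no count or median over the 10 is read as a result. Every knockout sample lay below every control sample for 15 of the 34, tested or not, against 5.47% of genes tested. Without control replicate 3, a setting chosen with the data in view, this held for 34 of 34, tested or not, against 14.5% of genes tested. Both shares cover only genes that reached the count minimum, so the sets compared are unlike. In that setting edgeR tested 24 of the 34 and called 15 lower, against 0.531% of the genes tested. With all samples, DESeq2 called 16 lower of the 26 to which it gave an adjusted p, against 0.511% of its genes. Entry depended on the control level in both settings too, so neither count is read as a result for the 34.

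Gm44601 was the called gene. It had 0.206, 0.384, 0.311 and 0.142 CPM in E18.5 knockout replicates 1 to 4, against 44.1, 44.7, 26.5 and 26.2 CPM in control replicates 1 to 4. The groups did not overlap, and control replicate 3 was as high as control replicate 4. Its log2 fold change was -6.85 (SE 0.40, edgeR adjusted p = 0.00332); without knockout replicate 3 the adjusted p was 0.0569. On the opposite strand it overlaps another intergenic noncoding gene, Gm32647, whose mean was 0 CPM in E18.5 knockouts and 1.01 CPM in controls.

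Gm44113 (ENSMUSG00000107880, chr6:75968046-75974983, minus strand), a long intergenic RNA, had 0 counts in every Figla knockout at both ages. In controls it had 5.47, 3.63, 1.43 and 3.58 CPM at E18.5, so knockouts were at least 42.1-fold lower, and 3.53, 3.20 and 4.25 CPM at P0, so knockouts were at least 41.8-fold lower (floor of 3 counts over the group). Its edgeR adjusted p at E18.5 was 0.286. Gm35850 (ENSMUSG00000109870, chr8:90709458-90740775, minus strand), also a long intergenic RNA, had 0, 0, 0.621 and 0.142 CPM in E18.5 knockouts and 3.57, 3.39, 9.85 and 3.83 CPM in controls, and was the one member for which control replicate 3 was the highest control.

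The 9 tested without a call had edgeR adjusted p from 0.144 to 1. A730082K24Rik had 0, 0.192, 0 and 0.142 CPM in knockouts (3 counts in all) and 7.71, 9.32, 3.58 and 11.9 CPM in controls, a ratio of 94.7 with a 95% counting interval of 32.0 to 462. Gm44873 had 0.103, 0.672, 0 and 0.425 CPM in knockouts and 21.9, 19.1, 6.99 and 11.5 CPM in controls, with a log2 fold change of -5.32 (SE 0.67, edgeR adjusted p = 0.151). Gm11985 had 0.413, 0.672, 0 and 0.142 CPM in knockouts and 20.4, 23.2, 2.51 and 32.3 CPM in controls, with a log2 fold change of -5.80 (SE 1.06, edgeR adjusted p = 0.411). None of these 3 overlapped between genotypes. By contrast, 4930562C15Rik did overlap: it had 3.09, 3.75, 0.932 and 1.42 CPM in knockouts and 14.4, 13.8, 3.04 and 31.2 CPM in controls, with a log2 fold change of -2.90 (SE 0.80, edgeR adjusted p = 1). It had the highest mean knockout level of the 34 at this age, at 1.93 CPM. The coding gene 4930519G04Rik (ENSMUSG00000029564, chr5:114853664-114883880, plus strand), which shares a stretch with transcripts of many genes, had 2 counts over the knockouts and 2.79, 3.39, 1.43 and 3.07 CPM in controls, a ratio of 46.6 with a 95% counting interval of 12.5 to 391. Without control replicate 3, the edgeR adjusted p was 0.00891 for A730082K24Rik, 0.0131 for Gm11985, 0.0216 for Gm44873 and 0.0295 for 4930519G04Rik, all lower.

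Among those that did not enter the test, E330020D12Rik had 0, 0.288, 0.155 and 0.567 CPM in E18.5 knockouts and 6.59, 4.6, 0 and 12.8 CPM in controls, so only control replicate 3 lay among the knockouts. D930020B18Rik had 0.206, 0, 0 and 0.142 CPM in knockouts and 11.6, 12.1, 0.358 and 13.5 CPM in controls. Gm15389 had 0 counts in every knockout and 1.45, 2.06, 0 and 5.75 CPM in controls, and Gm17767 had 1 count over the knockouts and 4.47, 5.33, 0 and 8.69 CPM in controls. For all 4, control replicates 1, 2 and 4 lay above every knockout. The coding gene 2310003L06Rik (ENSMUSG00000007457, chr5:87969459-87972870, plus strand) had 0 counts in all knockouts at both ages, and 2.68, 3.39, 0.716 and 4.47 CPM in E18.5 controls and 4.54, 2.83 and 3.58 CPM in P0 controls. It shares 114 exonic bases with Gm28434 on the same strand.

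**Figure D3:**
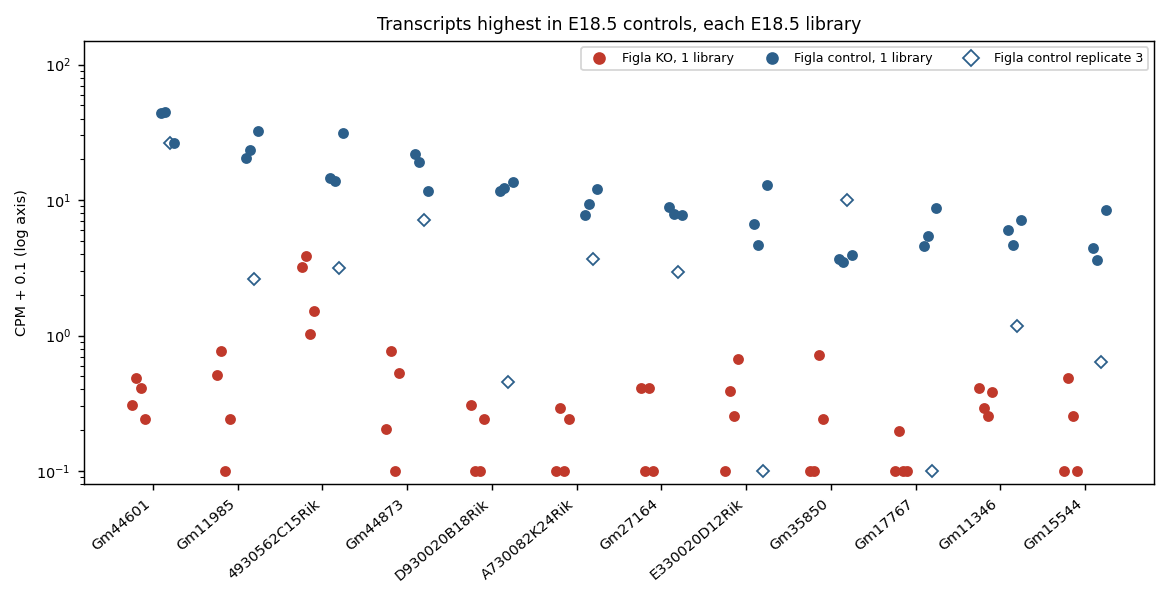
CPM plus 0.1 (log axis) of the 12 transcripts highest in E18.5 controls, 1 point per E18.5 library, with Figla knockouts left of controls and control replicate 3 as an open diamond. For Gm44601 the diamond at 26.5 CPM stands with the other controls, whereas for E330020D12Rik and Gm17767 it is at 0 CPM.

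In Lhx8 knockout ovaries at P0, 27 of the 34 transcripts had a lower mean than in controls and 5 had a higher one. The QuantSeq kit used for them reads only from transcript 3′ ends, so a transcript whose annotated end is not where its reads fall can be missed, and levels were not set against those of the Figla libraries. Together the 34 held 28.4, 75.3 and 51.3 CPM in Lhx8 knockouts, against 396, 490 and 506 CPM in Lhx8 controls. Of the 34, 22 were tested by edgeR's quasi-likelihood test. The test called 15 lower, where it called 7.29% of the 15274 genes tested lower, and 1 higher, where it called 3.06% of them higher; 6 were not called. The 22 had 55 to 3943 counts over the 3 controls, and the 12 not tested had 0 to 47. Entry to the test thus followed the control level here as well, so no count or share of calls over the 22 is read as a result for the 34. Over the 31 transcripts with any control count, knockouts held a median of 11.9% of the control level, and 16 held at most 1/8. Of the 167 genes with other symbols that passed both conditions of the choice, 132 were tested and 117 were called lower (88.6%). Among the 22 transcripts tested the share was 68.2%, which covers only those with enough control counts to enter. Of the 1384 other provisionally named genes, 874 were tested and 29 were called lower (3.32%). Knockout libraries lay below every control for 20 of the 34, tested or not, against 15.5% of genes tested. They lay above every control for 2, against 18.3% of genes tested. These shares too cover only genes that reached the count minimum.

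By the ratio of group means, 2 of the lower calls stood apart. The coding gene E330017A01Rik (ENSMUSG00000055789, chr16:58635167-58638739, minus strand) had 0, 0.832 and 0 CPM in knockouts and 25.2, 29.6 and 31.7 CPM in controls, with a log2 fold change of -6.63 (SE 0.59, edgeR adjusted p = 0.000115). The noncoding 2410152P15Rik (ENSMUSG00000084825, chr19:6617671-6674548, minus strand) had 0, 0.208 and 0.482 CPM in knockouts and 20.1, 21.2 and 15.9 CPM in controls, with a log2 fold change of -6.42 (SE 0.50, edgeR adjusted p = 5.65e-05). Both were separated by wide gaps from their controls. Gm42980 (ENSMUSG00000106015, chr5:127578750-127580109, plus strand) had 3 counts over the knockouts and 4.51, 5.19 and 5.78 CPM in controls, a ratio of 47.1 with a 95% counting interval of 15.8 to 231 (edgeR adjusted p = 0.00114). The coding gene 1700016H13Rik (ENSMUSG00000029320, chr5:103648039-103656010, minus strand) had 0, 0.312 and 0.241 CPM in knockouts and 7.32, 9.35 and 7.56 CPM in controls, with a log2 fold change of -5.43 (SE 0.56, edgeR adjusted p = 0.000276). The pseudogene Gm15544 had 0 counts in all 3 Lhx8 knockouts and 1.80, 3.01 and 2.11 CPM in controls, so knockouts were at least 21.2-fold lower against a floor of 3 counts over the group (edgeR adjusted p = 0.00248), and its place among the others cannot be ranked.

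The transcripts with the highest levels in Lhx8 controls were lower as well. E330020D12Rik had 3.44, 9.46 and 7.23 CPM in Lhx8 knockouts and 103, 140 and 174 CPM in controls (log2 fold change -4.42, SE 0.34, edgeR adjusted p = 5.24e-05). Gm15389, whose promoter window holds the repeated CAGATG, had 0, 6.55 and 3.25 CPM in knockouts and 85.9, 100 and 114 CPM in controls (log2 fold change -4.98, SE 0.65, edgeR adjusted p = 0.00103). The coding gene 4930562C15Rik had 0, 3.54 and 2.17 CPM in knockouts and 43.8, 56.6 and 59.3 CPM in controls (log2 fold change -4.85, SE 0.59, edgeR adjusted p = 0.000746). In each of these, knockout replicate 1 was the lowest of all 6 libraries. Gm4961, the noncoding RNA that resembles Kif2c, had 0.521, 4.47 and 1.81 CPM in knockouts and 28, 34.2 and 28.2 CPM in controls (log2 fold change -3.77, SE 0.49, edgeR adjusted p = 0.00103). Gm17767, with no CANNTG in its window, had 0.208, 4.89 and 1.08 CPM in knockouts and 29.3, 28.6 and 20.1 CPM in controls (log2 fold change -3.69, SE 0.63, edgeR adjusted p = 0.00508). Here too the groups did not overlap.

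At lower levels, D930020B18Rik had 3 counts over the knockouts and 2.91, 1.56 and 3.56 CPM in controls, a ratio of 24.4 with a 95% counting interval of 8.03 to 121 (edgeR adjusted p = 0.00828). A730082K24Rik had 0.833, 0.624 and 0.844 CPM in knockouts and 3.21, 2.08 and 2.00 CPM in controls (log2 fold change -1.72, SE 0.45, edgeR adjusted p = 0.0392), a call that DESeq2 did not make (adjusted p = 0.0635) and that leaving out any 1 library ended (edgeR adjusted p 0.0711 to 0.177). The 3 lower calls not yet named were Gm43769, F630040K05Rik and Gm5083, with log2 fold changes from -3.68 to -2.11 (edgeR adjusted p 0.00793 to 0.0273).

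Single knockout libraries moved the size of 8 of these changes by over 1.5 times, while those 8 calls held. This count leaves out Gm4961, Gm43769, F630040K05Rik and Gm5083, whose change was not followed through these settings. Without Lhx8 knockout replicate 2, the log2 fold change was -5.43 for Gm17767, -5.74 for 4930562C15Rik, -6.07 for Gm15389 and -6.07 for 1700016H13Rik. In that case E330017A01Rik, Gm42980 and D930020B18Rik had no count left in knockouts. Without knockout replicate 1 it was -3.94 for D930020B18Rik, -4.23 for 4930562C15Rik, -4.36 for Gm15389, -4.82 for 1700016H13Rik, -4.88 for Gm42980, -5.80 for 2410152P15Rik and -6.01 for E330017A01Rik. Without knockout replicate 3 it was -7.44 for 2410152P15Rik. The edgeR adjusted p for these ran from 1.36e-05 to 0.0201.

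The transcript that was higher in Lhx8 knockouts was Gm42765 (ENSMUSG00000106300, chr5:30529457-30543830, plus strand), an antisense RNA inside the calcium-binding protein gene Cib4. It had 5.21, 13.4 and 11.8 CPM in Lhx8 knockouts, against 2.00, 0.935 and 3.00 CPM in Lhx8 controls (log2 fold change 2.31, SE 0.48, edgeR adjusted p = 0.0148), with no overlap between groups. Without control replicate 1 or 2 the adjusted p was 0.0611 or 0.0638. In the Figla set it went the other way, with 0, 0.323 and 0.197 CPM in P0 knockouts and 3.20, 1.74 and 1.86 CPM in P0 controls. Cib4 itself averaged at most 0.386 CPM in any group. A stretch of Gm42765 matches transcripts of 163 other genes, so its counts are uncertain.

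Gm44601, the transcript called at E18.5, was not lower in Lhx8 knockouts: it had 6.36, 8.22 and 6.75 CPM there and 5.11, 6.13 and 5.45 CPM in controls. All 3 knockouts lay above all 3 controls, and the log2 fold change of 0.30 (SE 0.26, edgeR adjusted p = 0.492) did not pass the test. Gm44873 had 4.17, 2.70 and 2.05 CPM in knockouts and 2.10, 3.53 and 1.56 CPM in controls (log2 fold change 0.24, SE 0.43, edgeR adjusted p = 0.759), with overlapping groups. Gm11985 had 0.313, 2.81 and 1.21 CPM in knockouts and 5.21, 9.45 and 2.00 CPM in controls (log2 fold change -1.99, SE 0.70, edgeR adjusted p = 0.0998, and 0.0269 with DESeq2). F730016J06Rik (ENSMUSG00000086425, chr2:28095477-28127731, plus strand), a noncoding RNA, had 0, 2.60 and 0.482 CPM in knockouts and 5.41, 6.54 and 6.12 CPM in controls (log2 fold change -2.57, SE 0.78, edgeR adjusted p = 0.0619). Without knockout replicate 2 its log2 fold change was -4.72 (edgeR adjusted p = 0.00542), and without knockout replicate 1 it was -1.96 (edgeR adjusted p = 0.0437), so both settings call it lower. Gm44113 and Gm11346 were the other 2 tested without a call. These 6 therefore include transcripts with clear separation and transcripts with none.

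Of the 12 not tested in the Lhx8 set, Gm5723 and 4930442L01Rik had 0 counts in all 6 libraries, and Gm27164 had 65 counts in knockout replicate 2 and none elsewhere. Among the nearest coding genes, 22 were tested there, with 4 lower (18.2%, against 7.29% of all genes tested) and 1 higher (4.55%, against 3.06%). D7Ertd443e had a log2 fold change of -5.75 (edgeR adjusted p = 0.000116), Ptpn18 of -2.25 (0.000125), Pomgnt2, which encodes a glycosyltransferase and lies 49978 bases from Gm39464, of -0.85 (0.0192) and Shcbp1l of -0.52 (0.0342). The neighbour that was higher, 3110082J24Rik, lies 5898 bases from Gm4961 (log2 fold change 2.17, edgeR adjusted p = 0.0309). Pdzk1 averaged 0.358 CPM in Lhx8 knockouts and 1.81 CPM in controls (log2 fold change -2.34, SE 0.80, edgeR adjusted p = 0.089).

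**Figure D4:**
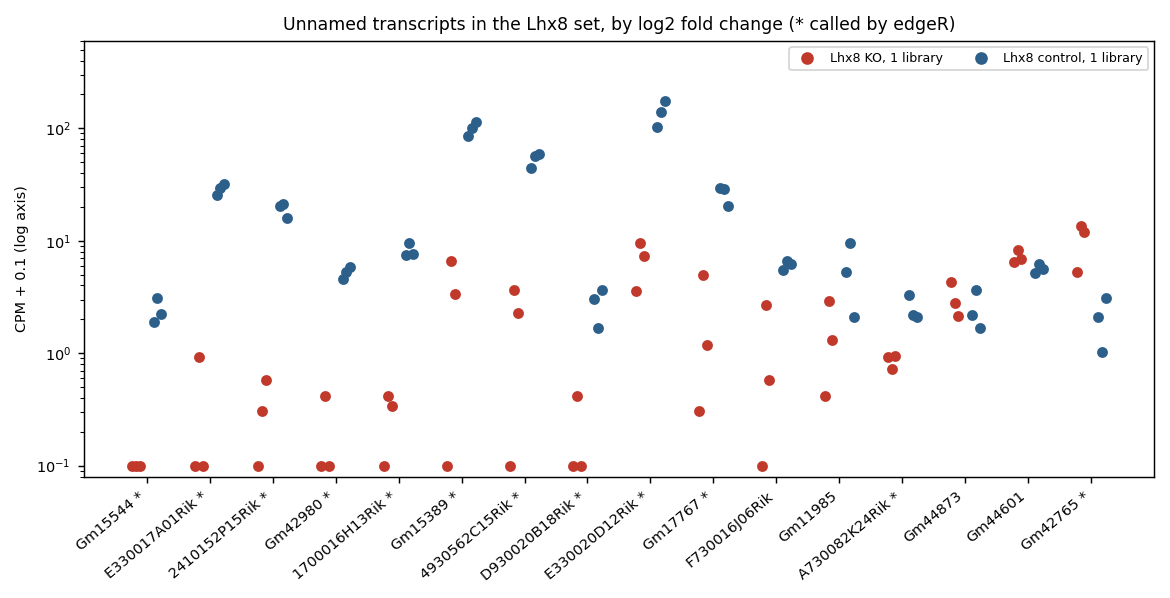
CPM plus 0.1 (log axis) of 16 of the transcripts tested in the Lhx8 set, ordered by log2 fold change, 1 point per library, with Lhx8 knockouts left of controls; a star marks an edgeR adjusted p under 0.05. At the left Gm15544 is at 0 CPM in all knockouts, and at the right Gm42765 is higher in knockouts, at 5.21 to 13.4 CPM.

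The 34 also differed in the age at which they were higher. In Figla controls 28 had a higher mean at P0 than at E18.5 and 6 a lower one; without E18.5 control replicate 3 these were 26 and 8. The 8 were Gm44601, Gm44873, Gm27164, Gm44113, 2310003L06Rik, Gm35850, 4930519G04Rik and Gm42765. Of these 8, 4 were tested in the Lhx8 set, where 0 were lower, 1 was higher and 3 were not called. Of the 26 others, 18 were tested there, and 15 were lower and 3 not called. Among all genes tested in that set, 7.29% were lower and 3.06% higher. Entry to the test followed the control level, so these counts are not read as a result. The split was drawn after the values were seen and has no test, and the P0 control levels it uses also chose the 34. E18.5 control replicate 3 held 19.1% to 269% of the other controls' mean for the 8 and 0% to 35.2% for the 26, with a median of 0%. The 5 with the highest E18.5 controls relative to P0, without replicate 3, were Gm42765 (2.27 CPM at P0 against 4.45 at E18.5), Gm44601 (20.7 at P0 against 35.3), Gm44873 (11.5 at P0 against 16.0), Gm27164 (5.83 at P0 against 7.99) and 4930519G04Rik (2.31 at P0 against 3.07). At the other end, Gm8801 had 3.54 CPM at P0 and 0.621 CPM at E18.5, and Gm39464 had 2.31 CPM at P0 and 0.436 CPM at E18.5.

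**Figure D5:**
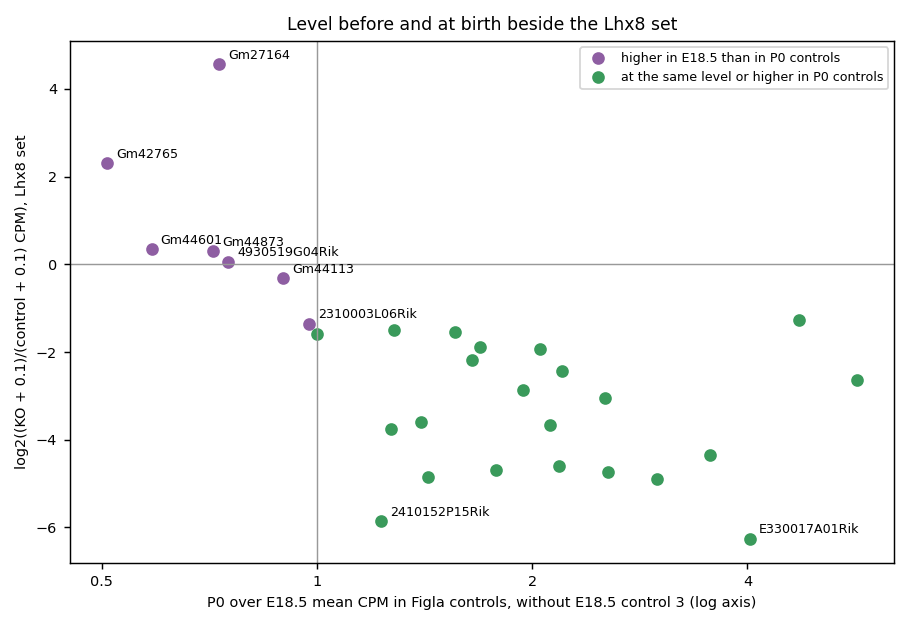
Each point is 1 of 29 transcripts with at least 0.5 CPM over both Lhx8 group means; x is its mean CPM in Figla P0 controls over that in E18.5 controls without replicate 3 (log axis), and y its log2 ratio of Lhx8 knockouts over Lhx8 controls with 0.1 CPM added to each. Transcripts higher at E18.5, left of the line at 1, run on y from 2310003L06Rik at -1.356 to Gm27164 at 4.557, with Gm42765 and Gm44601 between. The value of Gm27164 rests on 65 counts in Lhx8 knockout replicate 2. Those to the right of the line lie below 0 on y.

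Known oocyte genes give the setting. Of 7 genes for the egg coat and secreted oocyte factors, 5 were tested at P0 in the Figla set and all 5 were lower (edgeR), as were 4 of 4 tested in the Lhx8 set. Zp2, a zona pellucida protein, averaged 0 CPM in P0 Figla knockouts and 94.1 ± 43.3 CPM in controls, and in the Lhx8 set 2.08 ± 1.88 CPM in knockouts and 66.9 ± 10.1 CPM in controls (SD, n = 3 each). Of 13 maternal effect genes, 10 of 10 tested were lower in P0 Figla knockouts and 9 of 10 in Lhx8 knockouts. Of 8 oocyte transcription factor genes, 6 and 4 were lower. Each count includes the deleted gene itself, Figla in the first and Lhx8 in the second. Among all genes tested, the shares called lower were 10.9% in P0 Figla knockouts and 7.29% in Lhx8 knockouts. Nobox, a homeobox factor of oocytes, averaged 0.0597 ± 0.0525 CPM in P0 Figla knockouts and 162 ± 11.4 CPM in controls, and in the Lhx8 set 15.5 ± 11 CPM in knockouts and 163 ± 17.8 CPM in controls (n = 3 each). At E18.5, none of the 24 genes tested from these groups and the germ cell list passed edgeR's adjusted test. Markers of other cells were not lower in either set: 2 of 10 pregranulosa, 5 of 7 stromal, 3 of 5 endothelial, 1 of 5 macrophage, 0 of 6 erythroid and 0 of 5 Sertoli genes were higher in P0 Figla knockouts, and 1 of 9, 3 of 7, 0 of 5, 0 of 5, 0 of 4 and 2 of 4 in Lhx8 knockouts. The shares of all genes tested that edgeR called higher were 5.12% in P0 Figla knockouts and 3.06% in Lhx8 knockouts. Summed over 7 stromal genes, P0 Figla knockouts had 3560 to 4330 CPM and controls 2570 to 3130 CPM. These markers' part in the loss of the 34 transcripts was not tested.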

How the data were processed

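Expression in whole ovaries was measured by RNA-seq in 20 libraries. Per the labels' protocols, Figla libraries were made with a Nextera kit and Lhx8 libraries with the QuantSeq 3′ kit. Per the submitters' processing notes, the authors trimmed reads with cutadapt and aligned them with HISAT2 to GRCm38.p5 (no versions listed). Per the file headers, the deposited values are raw read counts per gene from featureCounts 1.6.0 with the GENCODE M12 annotation; the recorded commands ignore strand and set no multi-mapping option. CPM is a count scaled by its library's total over all genes.

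Members and gene lists were chosen with earlier results of these data known. Members were named by set ranks of level and fold change, calls, protein-coding annotation and neighbours past the thresholds. Symbols came from a separate list of gene names (49326 of 49585 genes matched), biotypes from GENCODE M21 and promoters from RefSeq. Figla replicate numbers follow the order of deposit and pair nothing. The labels do not tie libraries to animals, so p-values measure the spread between libraries, which may be technical.

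Each knockout was compared with its controls in its own model: edgeR 4.0.16 in R 4.3.3, filterByExpr (minimum count 10, minimum total 15), TMM scaling, the quasi-likelihood test and Benjamini-Hochberg adjustment over all genes tested, at 0.05. E18.5 near-identical library pairs were summed; mean and SD there use 3 samples. Counting intervals (95%) and floors of 3 counts cover counting error only. The fits were tested on simulated data. Alternatives were RLE scaling, DESeq2 1.42.0, no filter, other groupings, a replicate block and leaving out each replicate.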

Additional observations from a re-analysis of the deposited data

How the results depend on the processing

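The count of members called lower at E18.5 depended most on the processing. It was 1 of 10 tested with edgeR's quasi-likelihood test, where 0.0062% of all genes tested were lower. With DESeq2 it was 16 of 26 (0.511% of all genes tested), and with no filter on low counts 23 of 34 (0.475%). With each library as its own sample it was 8 of 10 (0.209%), and in 1 model of all Figla samples 13 of 34 (0.288%). With libraries whose labels agree it was 18 of 23 (3.31%), and with groups by title 0 of 10 (12.2%). Leaving out 1 replicate gave 0 to 15, with 0 of 24 without knockout replicate 3 (0% of all genes tested) and 15 of 24 without control replicate 3 (0.531%). The count with every knockout sample below every control sample, 15, became 15 to 34 when 1 replicate was left out, in an alternative added after the data were seen; 34 is the value without control replicate 3. The cause was not tested. In the Lhx8 set, members called lower numbered 15 of 22 tested, where 7.29% of all genes tested were lower. They numbered 12 to 18 of 22 to 32 tested in the alternatives, where 3.35% to 7.85% of all genes tested were lower. Members called higher numbered 1 (3.06% of all genes tested), with 2 without a filter (3.62%) and 0 to 1 when 1 replicate was left out (0.625% to 3.0%). Replicate numbers of the Lhx8 libraries did not pair the samples (correlations of same-numbered deviations -0.16, 0.05 and 0.04). A replicate block gave 12 lower (4.5% of all genes tested) and 1 higher (1.37%). The number of members was 59 at a control mean of at least 1 CPM and 19 at 4 CPM, and 30 to 43 in the other alternatives. Among single members, 4930562C15Rik at E18.5 turned to a log2 fold change of 0.12 with groups by title, and Gm44873 in the Lhx8 set to -0.04 without knockout replicate 1 (range -0.04 to 0.61 when 1 replicate was left out). At E18.5, 24 of 34 did not enter the test, all with at most 1.07 CPM in control replicate 3; without that library 24 entered it. In the Lhx8 set the 12 that did not enter had at most 47 counts over the controls. Why they were low there was not tested.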
